A study of Saccharomyces cerevisiae with 96 samples.

Results

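The genes described are the GATA factors of nitrogen control in Saccharomyces cerevisiae, 2 kinds of permease gene that they control and UGA3, an activator of GABA genes. They are 10 genes chosen by name, GLN3, GAT1, GZF3, DAL80, URE2, GAP1, MEP1, MEP2, MEP3 and UGA3, out of 5656 genes with a probe set of their own. A probe set was taken when its annotation names only one of them, which gave 13 of the 9275 probe sets of the array that are not controls, 4 of them for UGA3 and 1 for each of the other genes. RNA was measured with Affymetrix arrays in 2 congenic strains, each present as 1 strain, so a difference between strains cannot be told apart from any other difference between them. The Nmd+ strain is S288C, with a working nonsense-mediated decay pathway, and the Nmd- strain is YRZ1, in which UPF1 is replaced by KanMX4 (upf1Δ::KanMX4). Both are listed as SUC2 and CUP1 and carry mal, mel, gal2, flo1 and flo8-1. Mid-log cultures were sampled at 16 times after thiolutin, an inhibitor of transcription (0 to 12 min in steps of 2 min, 15 min, 20 to 50 min in steps of 5 min, and 60 min), in 3 time courses per strain (96 arrays). The labels give 10 μg/ml thiolutin for 90 arrays and 14 μg/ml for the 6 arrays at 4 min.

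Nonsense-mediated decay degrades mRNAs on which translation stops too early, and it also sets the level of many normal transcripts. In yeast, the zinc-finger activators Gln3 and Gat1 bind GATA sequences and switch on genes for the use of poor nitrogen sources, whereas Gzf3 and Dal80 bind the same sequences and repress. Ure2 holds Gln3 in the cytoplasm when good nitrogen sources are present. Gap1 takes up all amino acids, Mep1, Mep2 and Mep3 take up ammonium, and Uga3 is a zinc cluster activator of the genes for use of GABA.

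All values are log2 signals as deposited, and each probe set was compared with itself only. The arrays were made alike in overall level, so each change is read against the mean RNA level of its array, and RNA of whole cultures cannot tell fewer expressing cells from less RNA per cell. UPF1, the deleted gene, was at 1.93 to 3.81 on 44 Nmd- arrays and at 5.42 to 7.44 on 46 Nmd+ arrays. The unannotated probe set 3982_at separated the same arrays the other way (11.6 to 12.5 in Nmd- and 3.34 to 6.26 in Nmd+). It was picked for the largest median excess in Nmd- on these same arrays, so its separation is no independent check of the labels. The remaining 6 arrays went against their label. The Nmd- arrays among them did so on both probe sets, and the Nmd+ arrays on 3982_at alone (UPF1 at 6.27 and 5.43). The 6 arrays were Nmd- course 1 at 10, 40, 45 and 50 min, Nmd+ course 1 at 20 min and Nmd+ course 3 at 60 min. For the 10 genes, results that use these arrays are also given without them where a call changes. Tests of other named genes were not repeated without them. Arrays were scanned in 4 periods, and 61 of the 64 arrays of replicates 2 and 3 fell in the third. Calls needed an adjusted p under 0.05 together with a difference of 1.5-fold or more (limma, Benjamini-Hochberg adjustment over 9275 probe sets).

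The first question was which of these transcripts differ between the strains before transcription is blocked and on average over the course. At 0 min, GZF3 was lower in Nmd- and no other member was called. Over the course, 1 probe set of UGA3 was higher in Nmd- and no other member was called. Over all probe sets, 0.701% were called lower and 4.28% higher at 0 min, against 1 and 0 of the 13 probe sets described here. In the course means 2.64% were called higher and 0.0755% lower, against 1 and 0 of the 13. The median difference of the 13 probe sets was -0.11 at 0 min and -0.03 over the course, beside -0.05 and -0.09 over all probe sets. The plot of strain differences shows GZF3 as the lowest of the 13 at 0 min, with 8 of the 13 below 0, and 3 of the 4 UGA3 probe sets on the high side.

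**Figure D1:**
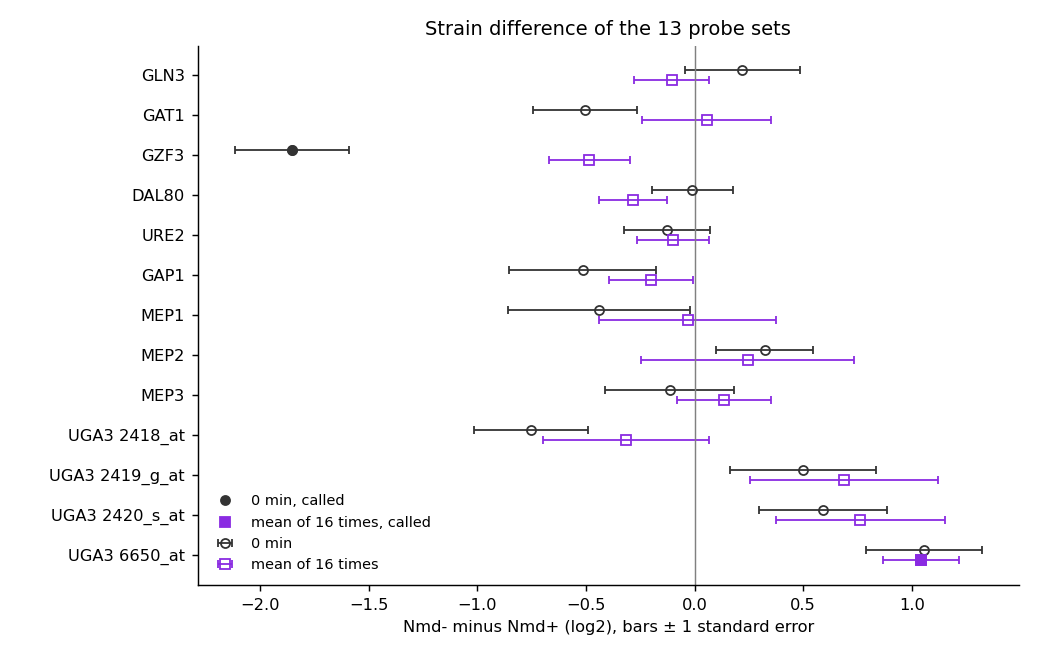
Difference between strains (Nmd- minus Nmd+, log2, horizontal axis) for each of the 13 probe sets at 0 min (circles, 3 arrays against 3) and in the mean of the 16 times (squares, 3 courses against 3), with bars of 1 standard error and filled symbols for called differences. GZF3 stands at -1.85 at 0 min and at -0.48 over the course, and the UGA3 probe set 6650_at at 1.06 and 1.04.

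GZF3 codes for a GATA-type repressor. At 0 min its log2 values were 7.06, 7.31 and 7.20 in the Nmd+ courses and 5.49, 4.79 and 5.72 in the Nmd- courses. The strains did not overlap, and every Nmd- value lay more than 1 log2 unit under every Nmd+ value. This is a 3.61-fold lower level in Nmd- (log2 difference -1.85, standard error 0.26, adjusted p = 0.0076 by limma). With the scan period as a block the difference was -1.89 (adjusted p = 0.0467), and within the 2 periods that hold both strains at 0 min it was -1.95 (2 Nmd- arrays against 1) and -1.81 (1 against 1).

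The gap in GZF3 was widest at the start. In the window from 0 to 4 min the level was 6.95 ± 0.11 (SD, n = 3 courses) in Nmd+ and 5.74 ± 0.48 in Nmd-, and from 6 to 12 min it was 6.47 ± 0.26 and 6.30 ± 0.18, with overlap. From 15 to 30 min it was 6.82 ± 0.30 and 6.27 ± 0.14 without overlap, and from 35 to 60 min 6.86 ± 0.57 and 6.62 ± 0.03 with overlap. The courses took different paths between these windows. In Nmd- course 1 GZF3 stood at 6.16 at 2 min and 6.58 at 4 min, and in course 2 at 6.36 and 6.72, both already above their start. Nmd- course 3 was still at 4.90 and 4.98 at these times, reached 6.52 at 6 min and was back at 5.13 at 8 min. In Nmd+ course 3 the values of 5.58 at 35 min and 5.00 at 50 min stood far below those around them (7.06 at 30 min and 6.76 at 40 and 45 min). All Nmd- arrays lay below all Nmd+ arrays at 8 of the 16 times, as in 0.938% of all probe sets at 8 times or more.

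**Figure D2:**
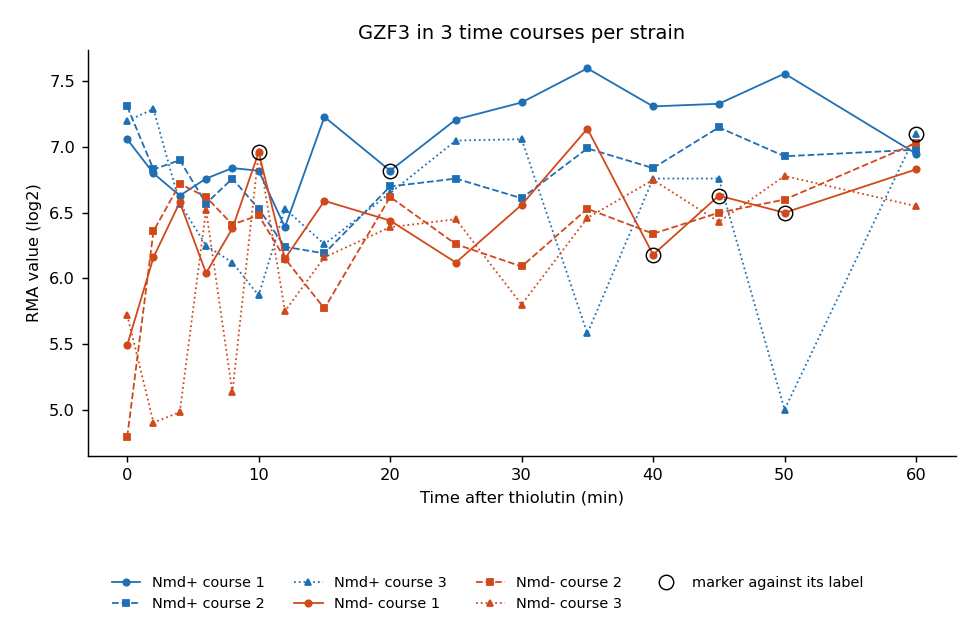
GZF3 (log2 value, vertical axis) against the time after thiolutin (min) in 3 Nmd+ courses (blue) and 3 Nmd- courses (red), with a point for each array and black rings around the 6 arrays whose UPF1 or 3982_at value went against their label. The 3 Nmd- courses start at 4.79 to 5.72, below the 7.06 to 7.31 of Nmd+, and by 35 to 60 min the strains overlap.

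Averaged over the 16 times, GZF3 was 1.40-fold lower in Nmd- (log2 difference -0.48, standard error 0.19, adjusted p = 0.39), which was no call. With courses of equal replicate number paired, the adjusted p was 0.0264, and the difference stayed under 1.5-fold. Within the scan periods the difference of all arrays was -0.59, -0.70, -0.40 and -0.70. These values pool times and courses, with 6 Nmd- arrays against 14 Nmd+, 5 against 1, 31 against 30 and 6 against 3. Within Nmd-, GZF3 rose from the 0 to 4 min window to the 35 to 60 min window by 0.58, 0.64 and 1.40 in the 3 courses (mean 0.87, standard error 0.20, adjusted p = 0.00246). Without Nmd- course 3 the rise was 0.61 with adjusted p = 0.0725, and without the 6 arrays against their label it was 0.98 with adjusted p = 0.00202. Scaled to reference probe sets in place of the average RNA, the rise was 0.37 (adjusted p = 0.107), which was no call. As deposited, the change in Nmd+ between these windows was 0.52, -0.03 and -0.78, with no common direction (mean -0.10, standard error 0.20, adjusted p = 0.727). From 6 to 12 min GZF3 moved up in each Nmd- course (0.31, 0.46 and 0.89) and down in each Nmd+ course (-0.13, -0.49 and -0.82). None of these early changes passed the test (adjusted p = 0.104 in Nmd- and 0.226 in Nmd+).

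Probe sets with numbers near that of GZF3 were also mostly lower at 0 min. Of the 25 probe sets numbered on each side of it, 48 of 50 were lower in Nmd- at 0 min, with a median of -0.57, and 6 were called lower. Next to it in number stand CCT7, a subunit of the cytosolic chaperonin, at -1.35 (adjusted p = 0.0152) and UTP10, of the ribosome assembly machinery, at -0.64 (adjusted p = 0.307). These 2 genes are also the neighbours of GZF3 on the chromosome in the RefSeq R64 annotation. PHO86 was at -1.30 (adjusted p = 0.0451), NCA3 at -1.26, MDV1 at -0.60, ASF1 at -0.40, YJL107C at -0.28, SET4 at -0.06, PRM10 at 0.07 and IME2, a meiotic kinase gene, at 0.77. After a running median over neighbouring numbers was taken out of each array, GZF3 was at -1.17 (2.25-fold lower, adjusted p = 0.0461). In the course means the 50 neighbours had a median of -0.13, so the stretch was much closer to 0 than at the start, and IME2 was the only one called (1.10, adjusted p = 0.0178). With the running median taken out, the late rise of GZF3 in Nmd- was 0.58 (adjusted p = 0.00305), just under 1.5-fold.

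**Figure D3:**
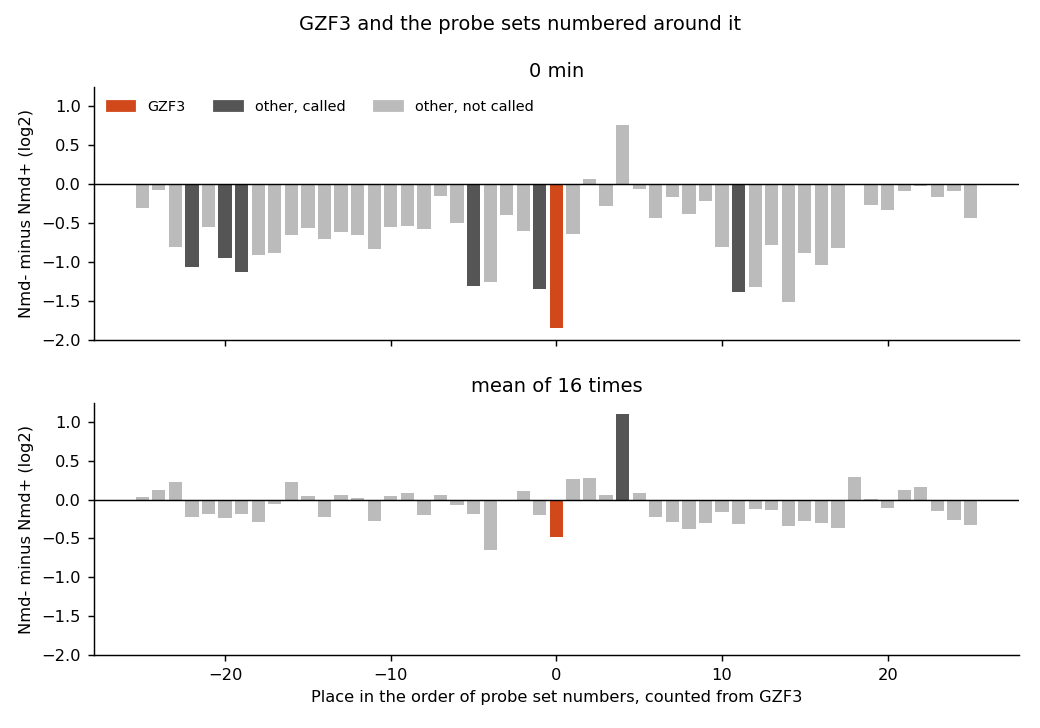
Difference between strains (Nmd- minus Nmd+, log2, vertical axis) at 0 min (top) and in the mean of the 16 times (bottom) for GZF3 (red) and the 25 probe sets numbered on each side of it, in order of number, with called probe sets in dark grey. At 0 min 48 of the 50 bars around GZF3 point down, and none is as low as GZF3 at -1.85.

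DAL80, the other GATA repressor gene, had values of 2.60 to 4.30 in Nmd+ and 2.08 to 3.96 in Nmd-. No detection call was used, so whether these stand above background was not tested. At 0 min its means were 2.97 ± 0.16 (SD, n = 3) in Nmd+ and 2.96 ± 0.13 in Nmd- (log2 difference -0.01, adjusted p = 0.985). Its course means differed by -0.28 (adjusted p = 0.668). In Nmd+ course 1 DAL80 went from 2.60 at 10 min to 4.30 at 15 min, the highest value of all 96 arrays, and the other Nmd+ courses did not pass 3.87.

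The activator genes did not differ between strains by the test. GLN3 lay between 3.57 and 5.23 in Nmd+ and between 3.42 and 4.92 in Nmd-, and its course means differed by -0.11 (standard error 0.17, adjusted p = 0.832). As for DAL80, whether the GLN3 values stand above background was not tested. In Nmd+, GLN3 was lower at 6 to 12 min than at 0 to 4 min in each course (by -0.28, -0.59 and -0.66). This mean change of -0.51 had an adjusted p of 0.0385 and was 1.42-fold, so it was no call. In Nmd- the same change was -0.14, -0.07 and 0.35, and the difference between the strains in this change was 0.55 (adjusted p = 0.671). By 35 to 60 min GLN3 was back within 0.21 of its early level in each Nmd+ course.

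GAT1 had course medians of 9.67, 9.41 and 8.81 in Nmd+ and 9.69, 8.73 and 9.27 in Nmd-. The strains therefore overlapped, and the difference of the course means was 0.06 (standard error 0.30, adjusted p = 0.952). At 0 min GAT1 was 9.20, 9.32 and 8.96 in Nmd+ and 9.05, 8.28 and 8.63 in Nmd- (log2 difference -0.50, adjusted p = 0.31). One array stood far from its course: Nmd+ course 1 at 10 min was at 7.31, between 9.83 at 8 min and 10.3 at 12 min. GAT1 was not called over time, but with 60 min set against 0 min alone it was called higher in Nmd- (0.59, adjusted p = 0.0421).

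URE2, whose protein keeps Gln3 out of the nucleus, moved little. It lay between 6.03 and 7.40 in Nmd+ and between 5.65 and 7.18 in Nmd-. Its strain difference was -0.13 at 0 min (adjusted p = 0.783) and -0.10 over the course (adjusted p = 0.835). From the first to the last window its value fell by 0.29 in Nmd+ and by 0.23 in Nmd- (log2, adjusted p = 0.096 and 0.178), and each of the 6 courses was lower at the end, by -0.02 to -0.60.

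UGA3 has 4 probe sets, and they did not give the same answer. The probe set 6650_at was higher in Nmd- at 0 min in every course, at 7.92, 8.00 and 7.52 against 6.82, 6.29 and 7.17 in Nmd+. The strains did not overlap, and the 2.08-fold difference did not pass the test (log2 difference 1.06, standard error 0.27, adjusted p = 0.0722). It passed with the chip lot as a block (1.33, adjusted p = 0.0412) and without Nmd+ course 3 (1.26, adjusted p = 0.0497). Within the 2 scan periods with both strains it was 0.60 and 1.63.

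Over the course 6650_at was 2.06-fold higher in Nmd-. The means of the 16 times were 6.57 ± 0.16 (SD, n = 3 courses) in Nmd+ and 7.61 ± 0.22 in Nmd-, with no overlap (log2 difference 1.04, standard error 0.17, adjusted p = 0.0257). With the courses paired by replicate number the adjusted p was 0.00863, and within the scan periods the difference of all arrays was 0.72, 0.998, 1.17 and 0.95. The values by period pool times and courses and rest on the same arrays as for GZF3. Left out in turn, 5 of the 6 courses took the adjusted p to between 0.0577 and 0.162, and the difference stayed between 0.92 and 1.14. Without Nmd- course 1, 2 or 3 it was 1.08, 0.92 and 1.14 with adjusted p = 0.0577, 0.114 and 0.0665, and without Nmd+ course 2 or 3 it was 1.003 and 0.99 with adjusted p = 0.162 and 0.0843. All Nmd- arrays lay above all Nmd+ arrays at 14 of the 16 times, as in 0.647% of all probe sets at 14 times or more. On the Nmd- course 1 arrays against their label 6650_at was at 7.01 (10 min), 7.16 (40 min), 6.99 (45 min) and 7.27 (50 min). At 8 and 12 min of this course it was at 8.04 and 8.09. Without the 6 arrays the difference was 1.10 (adjusted p = 0.0157). The 10 probe sets numbered next to it, which include GLT1 (0.01 at 0 min), PAR32 (-0.26) and UGX2 (-0.38), lay between -0.50 and 0.25 in the course means. The others among them were AIR2, DLD1, SFA1, NRP1, FAP7, CDC36 and an unnamed one, and none was called.

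The probe sets 2419_g_at and 2420_s_at were also higher in Nmd- on average. Their course means differed by 0.69 (standard error 0.43, adjusted p = 0.71) and 0.76 (standard error 0.39, adjusted p = 0.621), with overlap between the strains, and neither was called. With the courses paired, 2420_s_at passed (adjusted p = 0.0456) and 2419_g_at did not (adjusted p = 0.0596). With the running median over the numbers taken out, both were called at 0 min (1.22 and 1.31, adjusted p = 0.0352 and 0.0337) and over the course (1.05 and 1.12, adjusted p = 0.0204 and 0.00963). The probe set 2418_at, with means over the courses of 4.12 in Nmd+ and 3.81 in Nmd-, went the other way. Whether its values stand above background was not tested. It was at 4.70, 3.93 and 3.78 in Nmd+ and at 3.44, 3.34 and 3.37 in Nmd- at 0 min, without overlap (log2 difference -0.75, adjusted p = 0.177), and this difference was -0.02 with the running median taken out. Across the 96 arrays 2419_g_at and 2420_s_at followed each other (Pearson r = 0.97), and 6650_at followed them less (r = 0.61 and 0.70). These probe sets were read on the same arrays, so the correlation is a description.

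**Figure D4:**
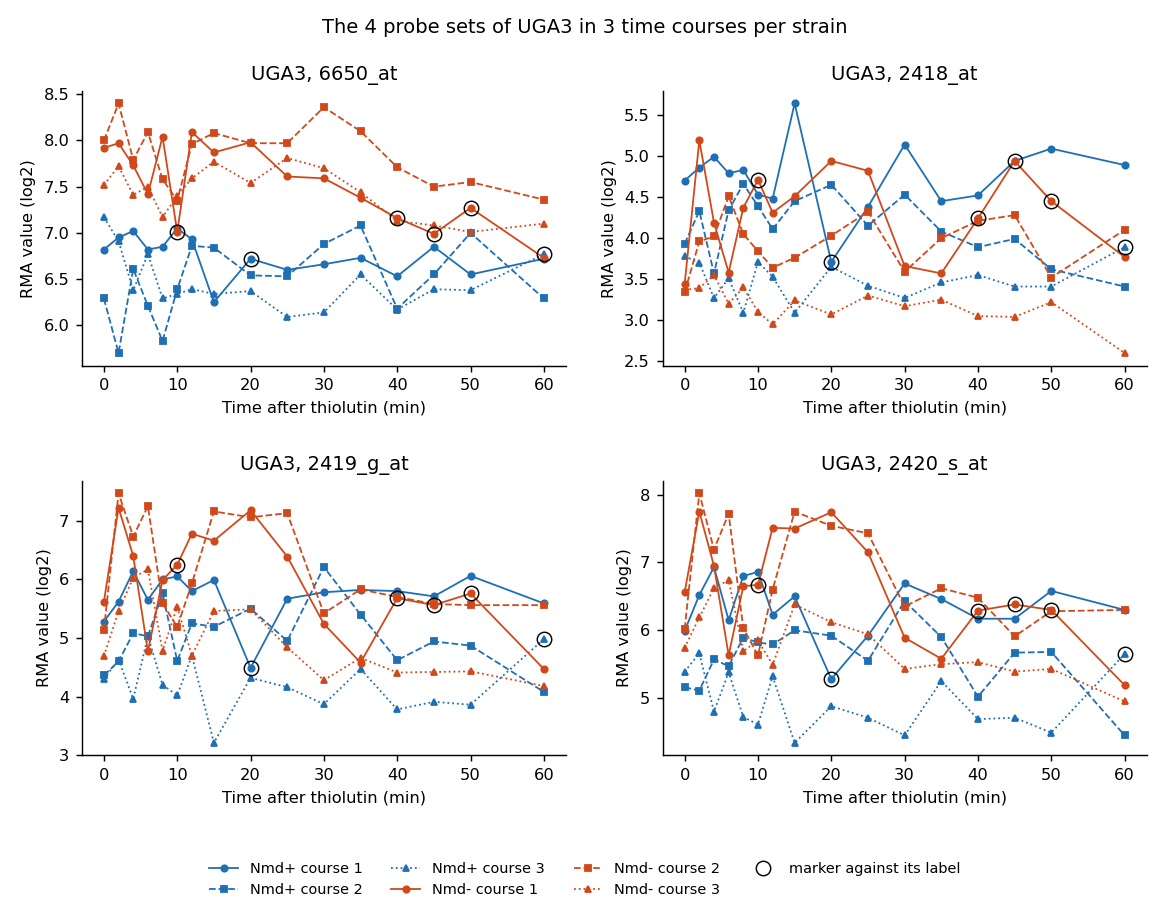
The 4 probe sets of UGA3 (log2 value, vertical axes of different range) against the time after thiolutin (min) in 3 Nmd+ courses (blue) and 3 Nmd- courses (red), with black rings around the 6 arrays against their label. For 6650_at the Nmd- courses lie above the Nmd+ courses at 14 of the 16 times, for 2419_g_at and 2420_s_at mainly in Nmd- courses 1 and 2 before 30 min, and for 2418_at they do not.

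Of the 4 probe sets of UGA3, 2 were called lower over time in Nmd-. From the first to the last window 2419_g_at changed by -1.20, -0.80 and -0.97 in the 3 Nmd- courses and by 0.11, 0.10 and -0.10 in Nmd+. The mean of -0.99 in Nmd- was 1.99-fold and passed the test (standard error 0.19, adjusted p = 0.000929), and 2420_s_at fell by 0.91 (adjusted p = 0.00153). The fall of 6650_at by 0.53 had adjusted p = 0.0132 and was 1.44-fold, under the fold minimum. The change of 2418_at was -0.08, 0.25 and -0.40 in the 3 Nmd- courses (mean -0.08, adjusted p = 0.731). The 2419_g_at value peaked early in Nmd- courses 1 and 2, at 7.22 and 7.47 at 2 min, and was still at 7.18 and 7.06 at 20 min. By 60 min it was at 4.47, 5.56 and 4.18 in the 3 Nmd- courses, beside 5.59, 4.08 and 4.98 in Nmd+, so the strains overlapped. Both calls were lost when the courses were not used as a block (adjusted p = 0.244 and 0.235) and when 60 min was set against 0 min alone (-0.41 and -0.62, adjusted p = 0.356 and 0.187). From 0 and 60 min alone 6650_at was called lower instead (-0.75, adjusted p = 0.0298).

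For the permease genes, the question was whether transcripts that depend on the GATA factors differ between strains or change alike over the course. None of GAP1, MEP1, MEP2 and MEP3 was called between strains, and only MEP3 was called over time (other settings, given with the values, changed this for MEP2 and, on another scale, for GAP1 and MEP1). GAP1, for the general amino acid permease, was at 8.99, 9.35 and 8.15 in Nmd+ and 8.68, 8.30 and 7.96 in Nmd- at 0 min, which overlap (log2 difference -0.52, adjusted p = 0.46). Its highest values were 10.2 and 9.99 at 15 min in Nmd+ courses 1 and 2, and 10.2 at 30 min in Nmd- course 3. At 60 min all 6 courses were between 7.70 and 8.41.

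MEP1 differed more between courses than between strains. Its course medians were 8.55, 7.97 and 7.07 in Nmd+ and 8.52, 7.82 and 7.22 in Nmd-, in the same order of replicate number in both strains. The strain difference was -0.03 over the course (standard error 0.41, adjusted p = 0.979) and -0.44 at 0 min (standard error 0.42, adjusted p = 0.626). At 60 min MEP1 was at its lowest in all 3 Nmd+ courses, at 7.85, 6.74 and 6.59.

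MEP2, for the ammonium permease with the highest affinity, had the widest range of the 13 probe sets in Nmd+. In Nmd+ course 1 it went from 7.29 at 0 min to 9.95 at 20 min (an array against its label), and in course 2 from 7.80 to 9.52 at 30 min before it stood at 6.14 at 40 min and 5.87 at 60 min. In Nmd+ course 3 it stayed between 5.91 and 7.48, the latter at 60 min on an array against its label. The 3 Nmd+ courses therefore did not agree, and the change of 0.19 from the first to the last window had a standard error of 0.36 (adjusted p = 0.703). With every array at the times of the 6 arrays against their label left out, which leaves 35 min alone in the last window, MEP2 was called higher in Nmd+ (0.98, adjusted p = 0.0348), and without the 6 arrays only it was not called. In Nmd- the 3 courses stayed closer together, with medians of 8.12, 8.11 and 8.19, and the highest value, 9.80 in course 1 at 10 min, came from an array against its label. The strain difference over the course was 0.25 (standard error 0.49, adjusted p = 0.859).

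MEP3 fell over the course in both strains. From the first to the last window it changed by -0.25, -1.52 and -0.17 in Nmd+ and by -0.26, -1.32 and -0.70 in Nmd-. The means were -0.65 (1.57-fold, adjusted p = 0.0371) and -0.76 (1.70-fold, adjusted p = 0.0178), and the difference between them was -0.11 (adjusted p = 0.914). These p-values rest on a standard error pooled over both strains and all windows, not on the spread of the changes listed. The fall was steepest in course 2 of each strain, from 9.30 at 4 min to 7.51 at 35 min in Nmd+ and from 9.17 at 4 min to 7.56 at 35 min in Nmd-. Without Nmd+ course 2 the change in Nmd+ was -0.21 (adjusted p = 0.486), and without Nmd- course 2 that in Nmd- was -0.48 (adjusted p = 0.225). Without Nmd- course 3, which enters the shared fit, the adjusted p was 0.0615 in Nmd+ (-0.65) and 0.0897 in Nmd- (-0.79). With 35 min alone in the last window, as above, the change in Nmd+ was -0.56 (adjusted p = 0.118). Neither fall was called when the courses were not used as a block (adjusted p = 0.146 in Nmd+ and 0.0983 in Nmd-) or from 0 and 60 min alone (adjusted p = 0.0856 and 0.078). MEP3 did not differ between the strains by the test, with a difference of -0.11 at 0 min (adjusted p = 0.88) and 0.14 over the course (adjusted p = 0.827).

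**Figure D5:**
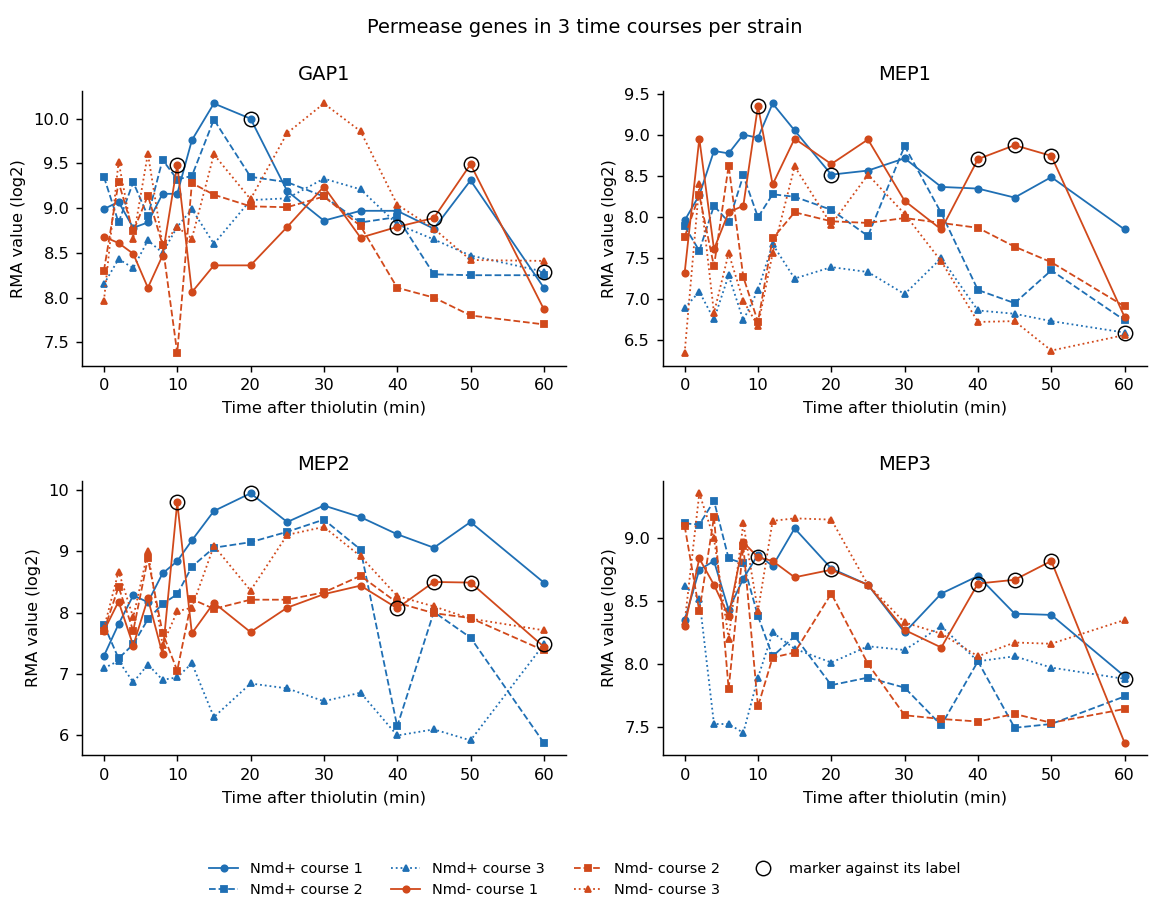
GAP1, MEP1, MEP2 and MEP3 (log2 value, vertical axes of different range) against the time after thiolutin (min) in 3 Nmd+ courses (blue) and 3 Nmd- courses (red), with black rings around the 6 arrays against their label. MEP2 separates the 3 Nmd+ courses, and MEP3 is lower on average at 35 to 60 min than at 0 to 4 min in all 6 courses.

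The counts over time were set beside those of the whole array. From 0 to 4 to 6 to 12 min none of the 13 probe sets was called by limma in either strain, with 3 in Nmd+ and 2 in Nmd- at an unadjusted p under 0.05, beside 17.2% and 25.0% of all probe sets. Over all probe sets 0.593% were called higher and 1.3% lower in Nmd+ at these times, and 0.787% higher and 0.593% lower in Nmd-. From 35 to 60 min, MEP3 was the only one of the 13 called in Nmd+ (1 lower and 0 higher), while 14.2% of all probe sets were lower and 11.6% higher. In Nmd- 3 of the 13 were called lower (MEP3 and 2 of UGA3) and 1 higher (GZF3), while 12.2% of all were lower and 10.3% higher. Scaled to 110 reference probe sets in place of the average RNA, the median of all probe sets fell by 0.17 in Nmd+ and by 0.27 in Nmd- from 6 to 12 min and by 0.64 and 0.49 in the last window. On that scale 10 of the 13 were called in Nmd+ and 7 in Nmd- in the last window, all of them lower and GAP1 and MEP1 among them in both strains, while 56.2% of all probe sets were called lower in Nmd+ and 40% in Nmd-, and GZF3 in Nmd- was at 0.37 (adjusted p = 0.107). At 6 to 12 min GLN3 was called lower in Nmd+ on that scale (-0.69, adjusted p = 0.00696) and UGA3 2420_s_at in Nmd- (-0.70, adjusted p = 0.0303), where 3.91% and 11.9% of all were called lower. Relative to the shifted median, the sign of the late change was the same as before for 12 of 13 in Nmd+ and for 13 of 13 in Nmd-.

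The difference between the strains in the change over time was tested directly. By limma none of the 13 was called, with 3 at an unadjusted p under 0.05 in each window, beside 7.18% of all probe sets at 6 to 12 min and 17.7% at 35 to 60 min. Over all probe sets 0% were called at 6 to 12 min and 2.74% at 35 to 60 min. The nearest at 35 to 60 min were UGA3 2419_g_at at -1.03 (standard error 0.28, adjusted p = 0.0556) and GZF3 at 0.97 (standard error 0.28, adjusted p = 0.0712). Without Nmd+ course 2 the UGA3 value was -0.998 with adjusted p = 0.0448, and with the scan period as a block both passed (-1.04 and 0.97, adjusted p = 0.0341 and 0.0103). At 6 to 12 min GZF3 was at 1.03 with adjusted p = 0.671, so the opposite early moves in the 2 strains were no call.

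Further genes of nitrogen use were counted for comparison. Of the 26 probe sets of genes under nitrogen catabolite repression (22 of 25 genes had one), 4 were higher in Nmd- at 0 min and 3 over the course, and none was lower, while 4.28% and 2.64% of all probe sets were called higher. They include DAL5, the allantoate permease gene, at 4.44-fold over the course (log2 2.15, adjusted p = 0.00977), DAL7, of allantoin degradation, at 3.80-fold (adjusted p = 0.0167) and DAL2, the allantoicase gene, at 2.44-fold (adjusted p = 0.0196). The medians of this list were 0.05 at 0 min and 0.06 over the course. In the last window 4 were lower and 2 higher in Nmd+, where 14.2% of all probe sets were lower and 11.6% higher. GLT1, of glutamate synthesis, was at -1.14, GDH2, of glutamate breakdown, at 1.01 and PUT4, the proline permease gene, at 2.05 (adjusted p = 5.55e-05, 5.76e-05 and 0.00131). PUT4 was also the only one called at 6 to 12 min in Nmd+ (1.82, adjusted p = 0.0369), where 0.593% of all were called higher. In Nmd- 6 were lower in the last window and none higher, among them DAL7 (-0.94), AGP1 (-0.96) and CAR1 (-0.96). Over all probe sets 12.2% were lower and 10.3% higher there.

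Of the 7 probe sets of the Uga3 targets UGA1, UGA2 and UGA4 and of its co-activator gene DAL81, none was called between the strains, with a median of 0.04 at 0 min and -0.11 over the course. Over time 2 probe sets were called, both of the gene UGA2. Both were higher in Nmd+ in the last window, where 11.6% of all probe sets were higher. The UGA2 probe set with the smaller adjusted p was at 0.71 (adjusted p = 0.00527 by limma). Of 22 probe sets of 18 amino acid permease genes, none was called between strains. In the last window 8 were lower and 3 higher in Nmd+, where 14.2% and 11.6% of all probe sets were. In Nmd- 8 were lower and 2 higher, where 12.2% and 10.3% of all were, beside no call for GAP1. They include TAT1 at -1.67 in Nmd+ and -1.33 in Nmd-, BAP3 at -1.33 and AGP2 at 0.78 in Nmd+, and TAT2 at -1.003 and HIP1 at -1.02 in Nmd-. PUT4 is in this list too and was its only call at 6 to 12 min. Of 25 probe sets of 17 genes of TORC1 and permease control, none was called between strains, and TIP41 (1.12 in Nmd+ and 0.66 in Nmd-) and PAR32 (0.72 in Nmd+), a regulator of the ammonium permeases, were the calls in the last window. These were 2 higher in Nmd+ and 1 in Nmd-, beside 11.6% and 10.3% of all probe sets.

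The genes whose log2 values most resembled each member were found over the 96 arrays, which share their courses, scan periods and array positions, so these correlations are descriptions. MEP3 was most like AGP1, an amino acid permease gene (r = 0.85, and 0.85 after the mean of each course was taken out), then HXT1 (0.72) and DIP5 (0.71). GAP1 was also most like AGP1 (0.59) and DIP5 (0.54), then MEP2 (0.53). MEP1 was most like CAR1, the arginase gene (0.79), CCS1 (0.77) and SRL1 (0.76), and MEP2 was most like MEP1 (0.67), GDH1 (0.66) and SEO1 (0.64). The permease genes had other permease and nitrogen genes among their nearest, beside others such as CCS1 and SRL1. After the mean of each course was taken out, SRL1 with MEP1 was at 0.55 and HXT1 with MEP3 at 0.64. MEP1 with MEP2 was then at 0.60, CAR1 with MEP1 at 0.77 and AGP1 with GAP1 at 0.59.

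The regulators had mostly other kinds of genes nearest to them. GZF3 was most like RTT101 (0.84), TPD3 (0.81) and CBP1 (0.79), and URE2 was most like YNL165W (0.81), SKI2 (0.79) and CSL4 (0.78). GLN3 was most like STP2 (0.79), a regulator of permease genes, RAD9 (0.78) and ARL3 (0.75). GAT1 had no close partner, with CLN3 (0.58), TYE7 (0.54) and MEP1 (0.54) nearest. DAL80 was most like MPE1 (0.80), YML083C (0.69) and FRM2 (0.68). Several of these partners have probe set numbers near that of the regulator. They are RTT101 and CBP1 for GZF3, YNL165W and CSL4 for URE2 and MPE1 for DAL80. The partners listed for GLN3 and GAT1 do not. How far shifts shared along the numbers make up these correlations was not tested, so the contrast with the permease genes is a description.

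For UGA3 the nearest depended on the probe set. 6650_at was most like RRN10 (0.89), MNT4 (0.88) and PEX28 (0.88), and these fell to 0.59, 0.59 and 0.59 once the mean of each course was taken out. 2418_at was most like UTP22 (0.95), HKR1 (0.94) and AIM26 (0.94), 2419_g_at like ENT4 (0.88), YDR444W (0.87) and BDS1 (0.84), and 2420_s_at like MAY24 (0.85), YDR444W (0.85) and RIM9 (0.84).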

How the data were processed

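The 96 arrays (Affymetrix YG-S98) were processed by the authors by robust multichip average, and the deposited values were read as log2 values, since their maximum of 14.2 is above the natural log of a full 16-bit signal (11.1). The study's methods describe natural logs instead, so every fold here rests on the reading as log2. Nothing further was done to them. Strain, time and replicate came from the sample titles, because the source names call every array upf1- and place those titled 2 min at 0 min. Array controls (60 probe sets) were dropped. Of the 9275 others, 6504 carry 1 gene name, 328 several and 2443 none, with symbols updated through RefSeq (R64). The files name no genome build, so no coordinates are given.

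Comparisons used limma 3.58.1 in R 4.3.3 (linear models, empirical Bayes moderation, Benjamini-Hochberg adjustment) on 3 against 3 arrays at 0 min, on 3 against 3 means of the 16 times, and on 24 window means (0 to 4, 6 to 12, 15 to 30 and 35 to 60 min) with the course as a block. The authors used SAM for abundance at 0 min, and limma took its place. The labels number the courses as replicates, and the study describes 3 independent trials. How their cultures were started is not said, so p-values of strain differences at 0 min and in course means measure the spread between these courses. Over time, the block takes out the level of each course. The standard error then pools what remains over all windows and both strains, so it is not the spread of the changes listed by course. In course means, deviations of courses with the same number correlated (r = 0.73, 0.58 and 0.83), and at 0 min they did not (0.10, -0.30 and 0.06). The labels do not say that these courses were run as pairs. Pairing was therefore tried only as an alternative, and what the same-numbered courses share was not tested. Paired, 664 probe sets were called over the course in place of 252. No arrays were duplicates. The number of arrays limits the precision. The steps were tested on simulated data, and tables were made in Python 3.11.15 with numpy 2.4.6 and pandas 2.3.3.

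The members, the lists and the tests were chosen with earlier results of these data known. Named besides the 10 genes are UPF1 and the KanMX4 cassette, for which no annotated probe set was found, up to 3 called genes of each list and comparison with the smallest adjusted p, the 3 genes most correlated with each member, and the 5 probe sets numbered on each side of a member called between strains. The limits for an array against its label (UPF1 at 5, 3982_at at 8) were set after the values were seen, and 3982_at was itself picked from these values. Alternatives changed the blocks, scaling, filter on dim probe sets, arrays, times and call rule. The half-life fits of the study were not repeated here.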

Additional observations from a re-analysis of the deposited data

Results flagged for a closer look

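GDH2 (6693_at), the gene for the glutamate dehydrogenase that breaks glutamate down, changed differently over time in the 2 strains by a test of the difference itself. From the 0 to 4 min window to the 35 to 60 min window it changed by 0.81, 1.01 and 1.20 in the Nmd+ courses and by -0.23, -0.33 and 0.10 in the Nmd- courses, which do not overlap (difference -1.16, standard error 0.22, adjusted p = 0.0131 by limma). At 0 to 4 min its level was 5.96, 6.06 and 6.41 in Nmd+ and 7.29, 7.67 and 7.89 in Nmd-. At 35 to 60 min it was 6.77, 7.07 and 7.61 in Nmd+ and 7.05, 7.34 and 7.99 in Nmd-. This window holds arrays against their label, Nmd- course 1 at 40, 45 and 50 min and Nmd+ course 3 at 60 min. The test of GDH2 was not repeated without them. Over all probe sets, 12 were called in this comparison without the 6 arrays against their label, in place of 254.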

How the results depend on the processing

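With 3 courses per strain and no detection calls, small changes and those of dim probe sets cannot be told from 0. Under the alternatives, 14 differences of GZF3, MEP3 and UGA3 were computed again in 227 settings, and 191 kept their direction and side of the threshold and none turned its direction. Some of the 14 were not called as reported, and for these the count means staying uncalled. Some settings could not turn a direction, such as adjusted p alone, or a course of the other strain left out for a change within 1 strain. GZF3 at 0 min stayed called in 15 of 15 (-2.05 to -1.17, adjusted p at most 0.0467), also with the replicate block (-1.85, adjusted p = 0.0306), although same-numbered arrays at 0 min do not deviate together. There the block took the calls over all probe sets from 462 to 277. UGA3 6650_at over the course stayed called in 11 of 16. Of the late changes in Nmd-, GZF3 stayed called in 14 of 17, MEP3 in 13 of 17 and UGA3 2419_g_at and 2420_s_at in 15 of 17 each. In Nmd+ MEP3 stayed called in 11 of 17.

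Of the 13 probe sets, 1 was called at 0 min, and 3 with the running median over the numbers, 2 with the chip lot as a block and 1 to 2 with a course left out. Over the course 1 was called, and 2 with the replicate block, 3 with the running median, 2 with the scan period blocked and 0 to 1 with a course left out. Over time in Nmd+ 1 was called, and 0 with no replicate block, 0 with arrays centred on the median, 10 with the reference probe sets, 2 by adjusted p alone, 0 from 0 and 60 min alone and 0 to 1 with a course left out. In Nmd- 4 were called, and 1 with no replicate block, 7 with the reference probe sets and 2 to 4 with a course left out. For the difference in change 0 were called, and 1 with the mean log2 of at least 5, 1 with the reference probe sets, 2 with the running median, 2 with the scan period blocked and 0 to 1 with a course left out. The remaining settings kept the counts within 1.5 times, but not always the same probe sets. In Nmd+ with the times of the arrays against their label left out, the 1 call was MEP2 and not MEP3. In Nmd- from 0 and 60 min alone the 3 calls were GZF3, GAT1 and UGA3 6650_at, of which 1 was among the 4. The dim filter left 10 of the 13. Except at 0 min, the setting with the scan period blocked also changed the unit of the fit from means to single arrays. The cause of these differences in the calls was not tested. Over all probe sets, the calls between the strains ran from 190 (without Nmd- course 3) to 462 at 0 min, where 462 were called as reported, and from 0 (without Nmd- course 2) to 664 (with the replicate block) over the course, where 252 were called as reported. For 35 to 60 min they ran from 1601 (0 and 60 min alone) to 5498 (reference probe sets) in Nmd+, beside 2395, and from 1245 (no replicate block) to 3984 (reference probe sets) in Nmd-, beside 2088. For 6 to 12 min they ran from 3 to 462 in Nmd+, beside 176, and from 0 to 1202 in Nmd-, beside 128, and for the difference of the change at 35 to 60 min from 0 to 681, beside 254.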
